A study of Homo sapiens with 23 samples.

Results

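Described here are 10 genes of the Hippo pathway: LATS1, LATS2, YAP1, WWTR1, TEAD1, TEAD3, TEAD4, AMOTL2, CCN1 and CCN2. They were taken by gene symbol from a list and are 10 of the 61217 genes in each of 6 tables of differential expression. The tables come from polyA RNA sequencing of a pair of cervical carcinoma lines: C-33A, labelled as HPV-negative squamous carcinoma, and CaSki, labelled as HPV-positive and derived from a metastasis. Cells of each line, grown in high glucose DMEM, received 100 nM of a synthetic mimic of 1 microRNA (miR-23b-3p, miR-218-5p or miR-124-3p) or 100 nM of negative control n#1. There are 23 samples in 8 groups, with 2 in the miR-124-3p group of C-33A and 3 in each of the others. Each comparison sets a mimic against the control of its own line, so the 3 comparisons of a line share their control samples. The labels do not say that samples came from separate cultures, so p-values measure only how far these samples differ, and that spread may be technical.

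Hippo signalling is a growth control pathway in which the kinases MST1 and MST2 activate the kinases LATS1 and LATS2. The LATS kinases phosphorylate the co-activators YAP (YAP1) and TAZ (WWTR1), which are then held in the cytoplasm or degraded. Unphosphorylated YAP and TAZ enter the nucleus and bind TEAD transcription factors, which switch on genes such as CCN1 (also CYR61) and CCN2 (also CTGF), both secreted matricellular proteins. AMOTL2 and LATS2 are targets that restrain YAP in turn. In cervical carcinoma the pathway is studied because YAP promotes growth of the epithelium. Phosphorylation and location of the proteins were not measured here, and all values are of RNA.

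Sequences of 2 of the microRNAs were taken from RefSeq (GRCh38.p14), with the seed, bases 2 to 8, in capitals. They are shown because the seed is the part that pairs with a target. The mature miR-23b-3p lies at chr9:95085265-95085287 (plus strand, gene MIR23B), and miR-218-5p at chr4:20528299-20528319 (plus strand, gene MIR218-1).
miR-23b-3p: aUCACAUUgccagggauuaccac
miR-218-5p: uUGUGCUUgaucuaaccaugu
These 2 seeds differ from each other. A match to bases 2 to 8 of the miR-23b-3p seed, AATGTGA, was found in the 3' UTR of 1 of the 10 genes, TEAD1, against 18.4% of 19040 genes with an annotated 3' UTR. A match to that of miR-218-5p, AAGCACA, was found in 2 of 10, TEAD1 and CCN1, against 14.0%. The TEAD1 3' UTR is 7261 nt long, against a median of 1108 nt. Below are the site of miR-23b-3p and the 8mer sites of miR-218-5p, which end in a further A, as 30-base windows of the plus strand of GRCh38 with the match in capitals. They lie at chr11:12937988-12938017, chr11:12939492-12939521 and chr1:85583902-85583931.
TEAD1, miR-23b-3p: aaaatataaaattgtattgtactAATGTGA
TEAD1, miR-218-5p: ggctcttgggatttcctttccaAAGCACAA
CCN1, miR-218-5p: gtattgaacacgacattgtatgAAGCACAA
TEAD1 holds 3 matches for miR-218-5p in all. An 8mer match for miR-218-5p was found in 2 of 10 genes, against 4.46% of genes with an annotated 3' UTR. For miR-23b-3p it was found in 0 of 10, against 8.76%. A match is a run of letters and not a measured site. The direction of each fold change, mimic over control, is taken from the name of its table. As a description, expressed genes with an 8mer match had a median log2 fold change below that of genes without any match to bases 2 to 7 in 3 of the 4 comparisons looked at, by 0.17 (C-33A, miR-23b-3p), 0.13 (C-33A, miR-218-5p) and 0.06 (CaSki, miR-218-5p). In CaSki with miR-23b-3p they were above it, at 0.04 against -0.05, and below it, at -0.09 against 0.00, once a trend over transcript length and GC content, described with LATS1, was subtracted. The miR-124-3p tables were not looked at in this way.

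Before the results, the labelled cell type was compared with its markers by the mean of the average log2 CPM (log2 of the library-scaled count) over the 3 comparisons of a line. In CaSki, the authors' deposited tables list all 6 epithelial markers (5.81 to 9.68) and all 6 squamous markers (6.55 to 12.1) at or above 1. In C-33A they list 0 of 6 epithelial markers at 1 or more, the highest being KRT18 at 0.78, and 0 of 6 squamous markers, the highest being SFN at -1.42. The C-33A libraries also held COL3A1, a fibrillar collagen gene of fibroblasts, at 7.18. Of the fibroblast markers, 2 of 6 were at 1 or more in C-33A and 1 of 6 in CaSki, of the leukocyte markers 1 of 5 (PTPRC at 2.55) and 0 of 5, and of the endothelial markers 0 of 5 in both. The defining keratins and adhesion genes of squamous epithelium are thus under an average log2 CPM of 1 in C-33A, against its label. No values per sample are analysed here. Depth is therefore unknown and no library could be left out. In bulk RNA, fewer cells of a type and less RNA per cell cannot be told apart.

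On GRCh38 (GENCODE release 29) YAP1 lies at chr11:102110461-102233423 (plus strand), TEAD1 at chr11:12674591-12944483 (plus strand), WWTR1 at chr3:149517235-149736714 (minus strand), LATS1 at chr6:149658153-149718256 (minus strand) and CCN2 at chr6:131948176-131951373 (minus strand). In level, YAP1 and AMOTL2 were among the most abundant of the 10 transcripts in CaSki, whereas CCN2 was abundant in C-33A and low in CaSki. The authors' deposited tables give CCN2 an average log2 CPM of 7.60 with miR-124-3p, 7.80 with miR-23b-3p and 7.71 with miR-218-5p in C-33A, and of 2.33, 2.61 and 2.41 in CaSki in that order. The 2 lines do not overlap, and the means, 7.70 and 2.45, are 38.2-fold apart. This difference in level is larger in size than that of 99.6% of 11094 genes compared. The tables of the lines were normalized separately and each value mixes mimic and control libraries, so no test was made. The marker levels given above differ between the same lines, and their part in the CCN2 level was not tested.

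YAP1, by contrast, had the higher level in CaSki. Its average log2 CPM in the authors' deposited tables was 7.46 to 7.60 in C-33A and 9.18 to 9.34 in CaSki, 3.30-fold apart. TEAD3, a TEAD factor best known from placenta, was 5.93-fold higher in CaSki (means of 2.21 and 4.78 in the authors' deposited tables), and LATS2 was 2.83-fold lower there (6.04 and 4.54). The other 6 genes differed by 1.18-fold to 2.36-fold between the lines, AMOTL2 (6.89 and 8.13), CCN1 (5.57 and 6.33) and WWTR1 (3.37 and 4.01) being higher in CaSki and LATS1 (6.66 and 5.84), TEAD1 (8.02 and 7.33) and TEAD4 (4.57 and 4.33) lower. Over all genes compared the median difference was -0.21, CaSki minus C-33A, and the median size was 0.62 on the log2 scale.

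**Figure D1:**
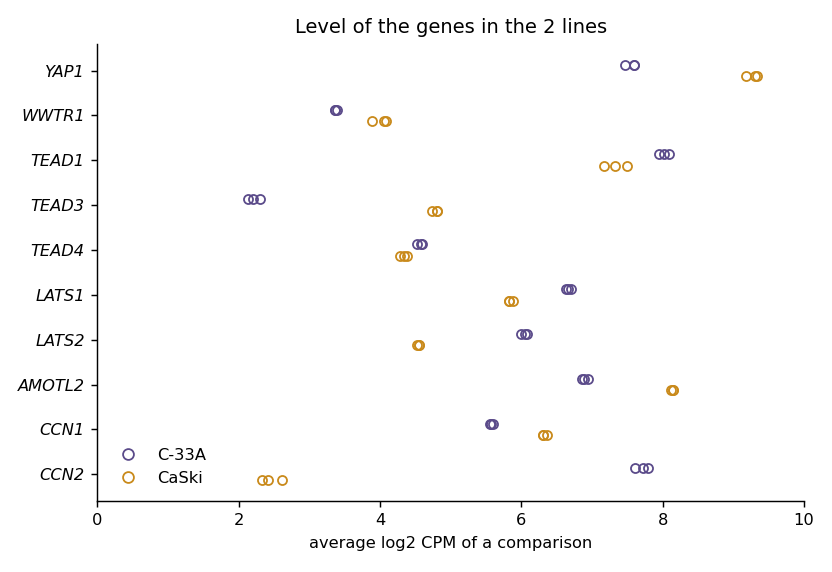
Average log2 CPM (x axis) of each gene (y axis) in the 3 comparisons of C-33A (purple) and of CaSki (orange), 1 point per comparison, each averaging mimic and shared control libraries. CCN2 is at 7.60 to 7.80 in C-33A and at 2.33 to 2.61 in CaSki, whereas YAP1 and TEAD3 are higher in CaSki.

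Levels of different genes were compared only per kb of transcript. By the median length of a gene's protein coding transcripts, the order in C-33A, as mean log2 CPM per kb, ran AMOTL2 (7.25), TEAD1 (6.53), CCN2 (6.48), YAP1 (6.29), LATS1 (4.89), TEAD4 (4.89), CCN1 (4.38), WWTR1 (3.65), LATS2 (3.58) and TEAD3 (0.99). The ranges over the 3 comparisons overlapped for the neighbours TEAD1 and CCN2 and for LATS1 and TEAD4, and those of WWTR1 (3.63 to 3.66) and LATS2 (3.54 to 3.62) lay next to each other. In CaSki the order was AMOTL2 (8.49), YAP1 (8.02), TEAD1 (5.84), CCN1 (5.13), TEAD4 (4.65), WWTR1 (4.29), LATS1 (4.07), TEAD3 (3.56), LATS2 (2.08) and CCN2 (1.22). With the longest transcript instead, CCN2 came first in C-33A and YAP1 in CaSki, so the top of the order depends on the length used. WWTR1, the TAZ gene, was below YAP1 by either length in both lines.

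The kinase genes came next in the pathway. In C-33A neither LATS gene passed the authors' edgeR test with any mimic. Their log2 fold changes in the authors' deposited tables lay between -0.03 (LATS2, miR-218-5p) and 0.16 (LATS2, miR-124-3p). In CaSki all 6 values were above 0. For LATS1, the authors' deposited tables give 0.36 with miR-124-3p, 0.51 with miR-23b-3p and 0.30 with miR-218-5p. Only the miR-23b-3p value was called (1.42-fold, SE 0.127, edgeR adjusted p = 0.0069). This call did not hold once a trend was subtracted that runs over the whole CaSki miR-23b-3p table. In that trend the log2 fold change moves with transcript length and GC content, and its source was not tested. With the trend subtracted, LATS1 stood at 0.30 (adjusted p = 0.226, the highest of the alternatives, the lowest being 0.00152), and against the mean of the other 2 mimics, where the shared controls drop out, at 0.18. LATS2, the paralog that is also a YAP target, stood at 0.24, 0.42 and 0.21 in the authors' deposited tables of CaSki, and the highest of these, with miR-23b-3p, did not pass (SE 0.158, edgeR adjusted p = 0.175).

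The co-activator genes rose in CaSki with miR-23b-3p. YAP1 was 1.49-fold higher (log2 fold change 0.58, SE 0.118, edgeR adjusted p = 0.000331 in the authors' deposited table), and WWTR1 was 1.91-fold higher (0.93, SE 0.201, adjusted p = 0.000807). With the trend subtracted both stayed past the threshold, at 0.43 (adjusted p = 0.0182) for YAP1 and 0.82 (adjusted p = 0.00614) for WWTR1. Over the alternatives the adjusted p ran from 7.16e-05 to 0.0182 for YAP1 and from 0.000175 to 0.00614 for WWTR1. Against the other 2 mimics YAP1 was at 0.39. In C-33A the YAP1 values in the authors' deposited tables were -0.46 with miR-124-3p (p = 0.00694, edgeR adjusted p = 0.861), -0.02 with miR-23b-3p and -0.07 with miR-218-5p. In CaSki they were 0.06 with miR-124-3p and 0.32 with miR-218-5p in the authors' deposited tables. None of these passed the edgeR test.

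WWTR1 was above its control in all 6 comparisons, by 0.25 to 0.34 in C-33A and 0.54 to 0.93 in CaSki on the log2 scale of the authors' deposited tables. Besides the miR-23b-3p value, it was called with miR-124-3p in CaSki (1.72-fold, log2 fold change 0.78, SE 0.204, edgeR adjusted p = 0.0461 in the authors' deposited table). Trend subtraction ended that second call, at 0.73 (adjusted p = 0.063, against a lowest value of 0.00995). Among expressed genes, those whose average log2 CPM reached 1, the WWTR1 fold change stood in CaSki at percentile 99.2 with miR-124-3p, 98.3 with miR-23b-3p and 97.9 with miR-218-5p. Against the mean of the other 2 mimics WWTR1 was at 0.05 with miR-124-3p, 0.27 with miR-23b-3p and -0.32 with miR-218-5p in CaSki. These contrasts carry no test. The antisense gene WWTR1-AS1 overlaps 9.45% of the WWTR1 exon bases in GENCODE release 29. No source used here gives the strand setting of the counting, so reads from the overlap cannot be told apart. In the CaSki miR-23b-3p comparison the authors' deposited table lists WWTR1-AS1 at an average log2 CPM of 0.25 and a log2 fold change of -0.60 (edgeR adjusted p = 0.621), against 4.08 for the WWTR1 level. Annotated antisense genes without a row of their own name in the tables overlap 9.97% of the exon bases of YAP1, 8.34% of CCN2 and 4.72% of LATS1.

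Of the TEAD factors, which carry YAP and TAZ to DNA, TEAD1 was the one called. It rose 1.69-fold in CaSki with miR-23b-3p (log2 fold change 0.75, SE 0.130, edgeR adjusted p = 1.37e-05 in the authors' deposited table). TEAD1 is the gene with the miR-23b-3p seed match printed above. With the trend subtracted the value was 0.51 (adjusted p = 0.00853, the highest of the alternatives, the lowest being 3.02e-06). Against the mean of the other 2 mimics it was 0.71, close to the value against control. In C-33A with miR-124-3p TEAD1 stood at -0.64 (SE 0.170, p = 0.000179) and missed the edgeR threshold at an adjusted p of 0.0877 in the authors' deposited table. That value passed under 2 other settings, with an adjusted p of 0.0188 over expressed genes alone and 0.042 with the trend subtracted. The remaining TEAD1 values in the authors' deposited tables were -0.12 and -0.30 in C-33A with miR-23b-3p and miR-218-5p, and -0.13 and 0.22 in CaSki with miR-124-3p and miR-218-5p. With the miR-218-5p mimic, for which TEAD1 holds 3 matches, neither line therefore showed a call.

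TEAD3 and TEAD4 were not called anywhere. TEAD3 values in the authors' deposited tables ran from -0.10 to 0.30 over the 6 comparisons. TEAD4, below its control in all 6, ran from -0.42 to -0.09, and the comparisons of a line share controls. Against the mean of the other 2 mimics TEAD4 ran from -0.07 to 0.04 in C-33A and from -0.26 to 0.23 in CaSki, on both sides of 0. The lowest TEAD4 value against control, in CaSki with miR-23b-3p, lies opposite to TEAD1 in the same authors' deposited table (SE 0.168, edgeR adjusted p = 0.226). It was -0.19 with the trend subtracted. The longest transcript of TEAD1 has a GC content of 41.3% and that of TEAD4 one of 60.4%, and GC content is one of the properties in the trend.

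Of the target genes, CCN2 had the largest single fall among the 10. Its start region is shown because CCN2 was the target that fell and the one whose level differed most between the lines. The RefSeq window of 250 bases before to 50 bases after the start (chr6:131951323-131951622, minus strand, GRCh38.p14) is printed 5' to 3' with GGAATG in capitals, the core of the TEAD binding motif, searched on both strands (reverse CATTCC).
CCN2 promoter: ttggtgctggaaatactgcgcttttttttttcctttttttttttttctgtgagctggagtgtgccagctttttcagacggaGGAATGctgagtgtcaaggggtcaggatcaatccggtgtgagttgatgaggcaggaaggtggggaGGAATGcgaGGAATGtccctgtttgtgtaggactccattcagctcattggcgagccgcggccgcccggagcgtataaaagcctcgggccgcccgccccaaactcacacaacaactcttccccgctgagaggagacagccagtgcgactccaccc
It holds 3 matches, at -169, -104 and -95 from the start, all on the gene's strand. Of 35116 promoters of the same length, 14.0% hold at least 1 match and 0.128% hold 3 or more. YAP1 and LATS2 each hold 1, AMOTL2 holds 1 in 1 of its windows, and the windows of WWTR1, TEAD3 and LATS1 hold 0. TEAD1, TEAD4 and CCN1 windows were not analysed here.

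In C-33A with miR-124-3p, CCN2 fell to 0.55 of control (log2 fold change -0.86, SE 0.172, p = 5.98e-07, edgeR adjusted p = 0.00105 in the authors' deposited table). Its place was percentile 0.493 among expressed genes, and the value was -0.84 with the trend subtracted and -0.61 against the mean of the other 2 mimics. That comparison rests on 2 mimic samples. CCN2 was also below control in the authors' deposited tables of C-33A with miR-23b-3p, at -0.14, and with miR-218-5p, at -0.36 (p = 0.0257), neither called by edgeR. In CaSki the authors' deposited tables give -0.11, 0.72 and 0.09 in the same order of mimics. The middle value corresponds to a 1.65-fold higher level, but its SE was 0.286 at a low level and it did not pass (edgeR adjusted p = 0.215). CCN2 therefore had its extreme values with different mimics and in opposite directions in the 2 lines.

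CCN1 was called in none of the 6 comparisons. Its log2 fold changes in the authors' deposited tables were -0.31, -0.11 and -0.25 in C-33A and 0.18, 0.45 and 0.19 in CaSki, in the order of mimics used for CCN2. All 3 C-33A values are below all 3 CaSki values, and the comparisons of a line share controls. With miR-218-5p, for which CCN1 holds an 8mer match, the values -0.25 and 0.19 are on opposite sides of 0, and neither passed the edgeR test in the authors' deposited tables. AMOTL2, a scaffold that binds YAP, also was not called and ran from -0.07 to 0.30 in the authors' deposited tables. Its CaSki miR-23b-3p value was the least precise of the 60, with an interval of -0.82 to 0.67 on the log2 scale and 3.17 degrees of freedom recovered from its F and p.

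**Figure D2:**
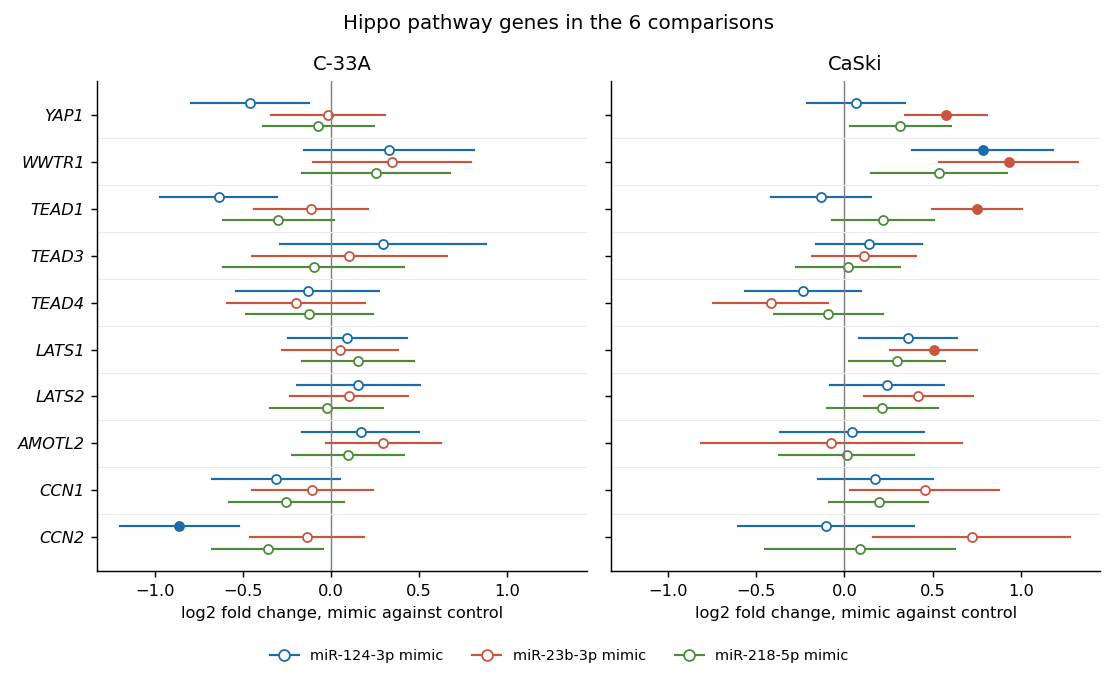
Log2 fold change of mimic against control (x axis) for the 10 genes (y axis) in C-33A (left) and CaSki (right), with 95% intervals as lines and 1 colour per mimic. Filled points passed a deposited FDR under 0.05, namely CCN2 with miR-124-3p in C-33A, WWTR1 with miR-124-3p in CaSki, and YAP1, WWTR1, TEAD1 and LATS1 with miR-23b-3p in CaSki.

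Counts over the 10 genes are read against all genes. A gene was called at a deposited FDR under 0.05, which covers all 61217 genes. In C-33A with miR-124-3p, 1 of 10 fell (CCN2), where 0.162% of all listed genes were called and 0.616% of expressed genes fell. In CaSki with miR-124-3p 1 of 10 rose (WWTR1), beside 0.305% of all genes called and 0.464% of expressed genes that rose. In CaSki with miR-23b-3p 4 of 10 rose and 0 fell, beside 2.4% of all genes called and 5.89% of expressed genes that rose. For the other 3 comparisons the edgeR count was 0 of 10, with 0.0474% (C-33A, miR-23b-3p), 0.0751% (C-33A, miR-218-5p) and 0.0245% (CaSki, miR-218-5p) of all genes called.

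At an unadjusted edgeR p under 0.05 the counts were 3 of 10 in C-33A with miR-124-3p against 10.9% of expressed genes, 0 against 4.68% with miR-23b-3p and 1 against 5.42% with miR-218-5p. In CaSki they were 2 of 10 against 16.3% with miR-124-3p, 8 against 31.6% with miR-23b-3p and 3 against 7.54% with miR-218-5p. Only the CaSki miR-23b-3p comparison had most of the 10 genes under that mark, TEAD3 and AMOTL2 being the exceptions. All 10 genes counted as expressed in every comparison. The median log2 fold change of the 10 was -0.02, 0.02 and -0.08 in C-33A (all expressed genes: -0.01, 0.02 and -0.04) and 0.10, 0.48 and 0.20 in CaSki (all: -0.02, -0.01 and 0.01), in the same order of mimics. With the trend subtracted the CaSki miR-23b-3p median was 0.36, and 8 of 10 genes were above 0 as before. The same step took the CaSki medians from 0.10 to 0.06 with miR-124-3p, with 5 in place of 7 genes above 0, and from 0.20 to 0.11 with miR-218-5p.

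**Figure D3:**
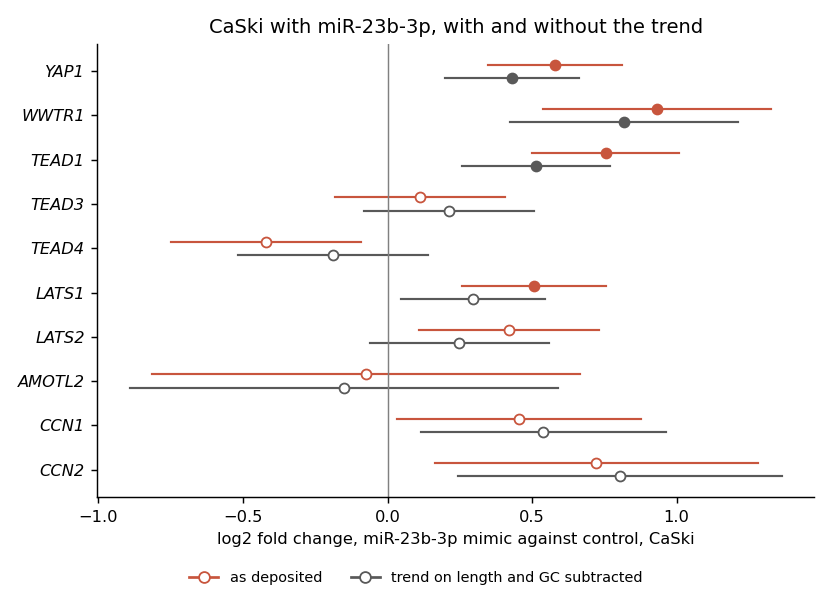
Log2 fold change in CaSki with miR-23b-3p (x axis) of the 10 genes (y axis), as deposited (red) and with the trend on transcript length and GC content subtracted (grey), with 95% intervals. Filled points passed an adjusted p of 0.05; LATS1 goes from 0.51 to 0.30 and loses its call, whereas YAP1, WWTR1 and TEAD1 keep theirs.

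The lines share no samples, so the difference between their fold changes could be tested for each mimic. TEAD1 with miR-23b-3p was the single gene of the 10 that passed, with CaSki 0.87 above C-33A on the log2 scale (SE 0.211, interval 0.46 to 1.28, adjusted p = 0.0101), beside 1.7% of 12905 genes called. Subtracting the trend took the difference to 0.59 and ended the call (adjusted p = 0.275, the lowest of the alternatives being 0.00225). Differences for CCN2 (0.86, adjusted p = 0.146), YAP1 (0.59, adjusted p = 0.0929), CCN1 (0.56) and LATS1 (0.45) were under an unadjusted p of 0.05 and not called. With TEAD1 that makes 5 of 10, beside 15.6% of all genes tested. WWTR1, called in CaSki with this mimic, differed by 0.59 with an interval of -0.01 to 1.18, so a larger response in CaSki was not shown.

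With miR-124-3p the call count was 0 of 10, beside 0.0% of 12970 genes, and 3 of 10 were under an unadjusted p of 0.05 by this normal test, beside 2.51%. These were CCN2 (0.76, interval 0.15 to 1.36), YAP1 (0.52) and TEAD1 (0.50). The fall of CCN2 in C-33A was thus not shown to be particular to that line (normal test over all genes, adjusted p = 0.9998). With miR-218-5p the call count was 0 of 10 as well, beside 0.0% of 12902 genes, and 2 of 10, TEAD1 (0.52) and CCN1 (0.45), were under an unadjusted p of 0.05, beside 1.56%. The tests of both lines rest on a spread pooled over genes, with far more degrees of freedom in C-33A. Groups of 3 samples alone could not give the values listed next for CaSki either. Recovered from each deposited F and its p, the degrees of freedom reached 183651 and 244868 in C-33A and 38.2, 31.5 and 25.7 in CaSki, so the SEs of the lines are not of one kind.

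**Figure D4:**
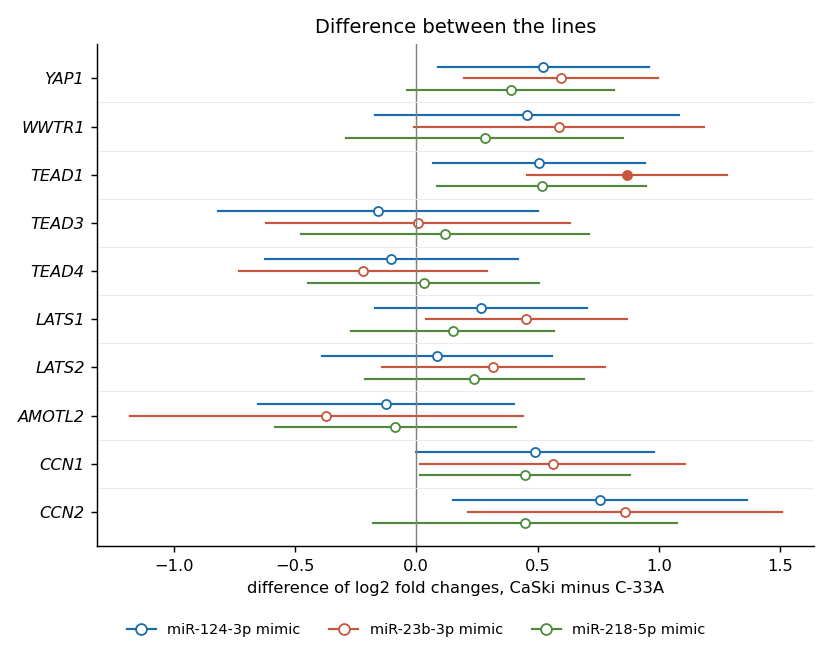
Difference of log2 fold changes, CaSki minus C-33A (x axis), for the 10 genes (y axis) with 95% intervals and 1 colour per mimic. The filled point, TEAD1 with miR-23b-3p at 0.87, passed the adjusted threshold, and every interval of WWTR1, TEAD3, TEAD4, LATS2 and AMOTL2 includes 0.

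Other genes of the pathway were counted from 3 lists. Of 30 genes of the kinase cassette and its upstream regulators, 0 were called by edgeR in the 3 C-33A comparisons and with miR-218-5p in CaSki. Of the expressed genes of this list, 3, 1 and 3 of 26 in C-33A (miR-124-3p first, miR-218-5p last) were under an unadjusted p of 0.05, beside 10.9%, 4.68% and 5.42% of all expressed genes. In CaSki these were 5, 10 and 3 of 29 in the same order, beside 16.3%, 31.6% and 7.54%. In CaSki with miR-124-3p 1 rose, WWC3, a WWC family scaffold (0.55, edgeR adjusted p = 0.0369 in the authors' deposited table). There 0.464% of all expressed genes rose. In CaSki with miR-23b-3p 2 rose, TAOK1, a kinase that activates MST kinases (0.41, adjusted p = 0.0161), and FAT4, a giant cadherin (0.50, adjusted p = 0.0356), in the authors' deposited table, beside 5.89% of all expressed genes that rose there. All 3 lost the call with the trend subtracted, with adjusted p values of 0.245, 0.708 and 0.708. The same subtraction brought 3 calls of falls in this list: WTIP, a LATS inhibitor, in C-33A with miR-124-3p (-0.75, adjusted p = 0.0122), and in CaSki with miR-23b-3p SIKE1, of the STRIPAK phosphatase complex (-0.37, adjusted p = 0.033), and AJUBA, another LATS inhibitor (-0.36, adjusted p = 0.0372), the last 2 named after their values were seen. Among the genes without a call as deposited, the authors' deposited tables give SIKE1 -0.62 in C-33A with miR-23b-3p and -0.47 with miR-124-3p, where WTIP was at -0.53. NF2, the tumour suppressor Merlin, was at -0.37 in C-33A and -0.41 in CaSki with miR-218-5p in the authors' deposited tables, where MOB1A, a LATS co-activator, was at -0.37 in C-33A and WWC3 at 0.28 in CaSki. RASSF1, which binds MST kinases, was at 0.34 in C-33A with miR-23b-3p in the authors' deposited table.

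Of 18 cofactors of YAP, TAZ and TEAD, 1 was called by edgeR in 1 comparison and 0 in the other 5. The call was in CaSki with miR-23b-3p, where 5.89% of all expressed genes rose. Of 16 expressed cofactors, 1, 2 and 3 in C-33A (miR-124-3p first, miR-218-5p last) were under an unadjusted edgeR p of 0.05. The shares of all expressed genes were 10.9%, 4.68% and 5.42%. In CaSki the counts were 2, 8 and 5 of 16 in the same order, beside 16.3%, 31.6% and 7.54%. PTPN14, a phosphatase that binds YAP and restrains it, rose in CaSki with miR-23b-3p (0.62, SE 0.127, edgeR adjusted p = 0.000325 in the authors' deposited table), and reached 0.29 with the trend subtracted (adjusted p = 0.242). It was at 0.52 in C-33A and 0.42 in CaSki with miR-218-5p in the authors' deposited tables, neither called. VGLL4, a TEAD repressor, was at 0.46 with miR-124-3p and 0.65 with miR-23b-3p in C-33A in the authors' deposited tables, without a call. YES1, the kinase YAP is named after, was at -0.43 with miR-23b-3p and -0.62 with miR-218-5p in C-33A in the authors' deposited tables. Uncalled too in the authors' deposited tables were BTRC, a ubiquitin ligase subunit that acts on YAP (0.41 with miR-124-3p and 0.40 with miR-218-5p in CaSki), VGLL3 (0.29 with miR-124-3p in CaSki) and TEAD2 (0.31 with miR-124-3p in C-33A).

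Of 31 further YAP and TAZ targets, 19 were expressed in C-33A with miR-124-3p. There 0 rose and 2 fell, beside 0.616% of all expressed genes that fell. Under an unadjusted edgeR p of 0.05 were 5 of 19, beside 10.9%. The 2 were TNFRSF12A, the receptor of the cytokine TWEAK (-0.78), and ANKRD1, a cardiac ankyrin repeat protein (-0.77). Both had an edgeR adjusted p of 0.0104 in the authors' deposited table. They fell in the comparison in which CCN2 fell, and ANKRD1 lost its call with the trend subtracted (-0.62, adjusted p = 0.132). The median of the 19 measured targets there was -0.22, against -0.01 for all expressed genes. With miR-218-5p BIRC5, the mitotic protein survivin, fell in both lines, by 0.87 in C-33A (adjusted p = 0.000429) and 0.86 in CaSki (edgeR adjusted p = 0.0139) in the authors' deposited tables. IGFBP3, a binder of insulin-like growth factors, fell by 0.85 in C-33A (edgeR adjusted p = 0.00588 in the authors' deposited table). The median there was -0.19 over 20 measured targets in C-33A, against -0.04 for all genes, and -0.02 over 28 in CaSki. These 2 calls in C-33A and 1 in CaSki stand beside 0.0751% and 0.0245% of all listed genes called. Those shares cover both directions and genes that are not expressed, so they are no measure for falls among expressed targets. Under an unadjusted edgeR p of 0.05 were 4 of 20 and 7 of 28, beside 5.42% and 7.54% of all expressed genes.

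In CaSki with miR-23b-3p the targets moved both ways, 5 rising and 3 falling of 28 expressed, beside 5.89% of all expressed genes that rose. The share of expressed genes that fell was not counted. The 2.4% of all listed genes called covers both directions and genes that are not expressed, so it is no measure for the falls. Under an unadjusted edgeR p of 0.05 were 14 of 28, beside 31.6% of all expressed genes. In the authors' deposited table, ASAP1, a regulator of ARF GTPases, rose by 0.81 (edgeR adjusted p = 2.00e-05), and MYOF, a membrane repair protein, by 0.51 (adjusted p = 0.00167). FJX1, a Golgi protein, fell by 0.59 (edgeR adjusted p = 0.000448 in the authors' deposited table). After the trend was subtracted, 3 rose and 1 fell, but the fall was not one of those called as deposited. It was AJUBA, which is on this list as well as the kinase list (-0.36, adjusted p = 0.0372). As deposited AJUBA stood at -0.27 without a call (edgeR adjusted p = 0.231). ASAP1 kept an adjusted p under the threshold (0.00285), and MYOF and FJX1 did not (0.162 and 0.0815). ANKRD1 (-0.97) and TNFRSF12A (-0.44) were among the falls in the authors' deposited table, and both lost the call with the trend subtracted, at -0.84 (adjusted p = 0.0856) and -0.17 (adjusted p = 0.562). The median of the 28 measured targets was 0.09, against -0.01 for all expressed genes, below the 0.48 of the 10 pathway genes. No target of this list was called by edgeR in C-33A with miR-23b-3p or in CaSki with miR-124-3p. Under an unadjusted edgeR p of 0.05 were 0 of 19 and 5 of 28, beside 4.68% and 16.3% of all expressed genes. In the authors' deposited tables the lowest p there belonged to BIRC5 (0.26) and ARHGAP29 (-0.42) in C-33A, and to THBS1 (0.50) and ARHGAP29 (-0.36) in CaSki.

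**Figure D5:**
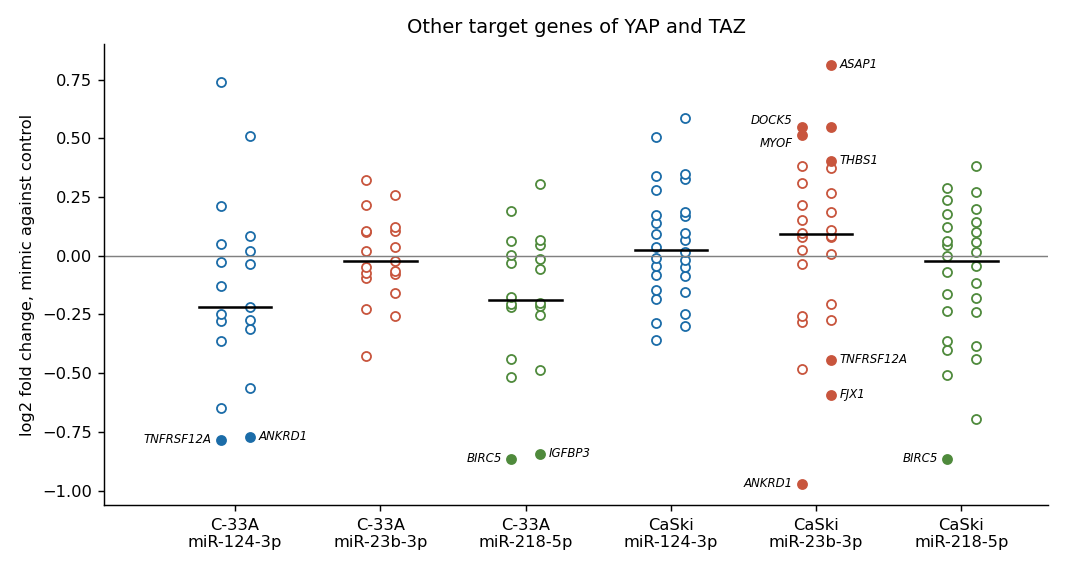
Log2 fold change (y axis) of the expressed genes among the further YAP and TAZ targets in each comparison (x axis), 1 point per gene, offset sideways for legibility, with the median as a bar. Filled points passed a deposited FDR under 0.05, most of them named, and the median runs from -0.22 in C-33A with miR-124-3p to 0.09 in CaSki with miR-23b-3p.

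Likeness of pattern was measured as the Euclidean distance between the 6 log2 fold changes of 2 genes, over 9695 genes. The gene nearest to CCN2 was TEAD1, at 0.27, followed by QSER1 (0.42) and PALLD (0.48), against a median distance of 1.28. Nearest to YAP1 were MYO10 (0.16), TNS3 (0.16) and TIMM9 (0.18), with a median of 0.93 over all genes. CCN1 was nearest to NAF1 (0.15), MOB1B (0.15), the LATS co-activator, and ATAD5 (0.16), with a median of 0.82. Distances are descriptions, since the comparisons within a line share controls and the trend over length and GC content is part of the values.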

How the data were processed

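PolyA RNA was sequenced from 23 samples of C-33A and CaSki. Per the submitters' processing notes, the tools were edgeR 3.36.0, featureCounts 2.0.3, STAR 2.7.10b and FastQC 0.73, and the build was hg38 (GRCh38). The authors deposited 1 table for each of the 6 comparisons. Per the file headers, its columns for 61217 genes are a p-value with an FDR, an F score, the average log2 CPM and the log2 fold change. Recomputed by the Benjamini-Hochberg method over all of them, the adjusted p-value equals the deposited FDR. Each table was matched to its comparison by the line and microRNA in its name; no header states them, so the sign of every fold change (mimic over control) rests on that name. No source used here gives the strand setting, and depth per sample is unknown. The design foresaw a fit to counts per sample where a file held them and the deposited statistics otherwise; the latter applied.

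The 10 genes, the lists and the alternatives were chosen with earlier results of these data known. Dividing each log2 fold change by the normal quantile of its deposited p-value gave a standard error (SE), and intervals are 95% normal intervals. The difference between lines was a two-sided normal test with these SEs, adjusted over genes whose average log2 CPM reached 0 in both lines. Expressed genes reach 1. The trend was a robust spline with 5 degrees of freedom on log transcript length and on GC content (fitted on genes that reach 2), subtracted from the log2 fold changes, after which p-values were recomputed from the same SEs. Named from each list were the 4 called genes with the lowest p, or without any the 2 lowest p; 1 gene is counted but not reported here. Seed matches used the longest 3' UTR among a gene's protein coding transcripts (GENCODE release 29). Alternatives changed thresholds, centring, the genes adjusted over and the site length. Python 3.11.15, numpy 2.4.6, pandas 2.3.3, scipy 1.17.1 and statsmodels 0.14.6 were used, and the scripts were tested on simulated data.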

Additional observations from a re-analysis of the deposited data

Results flagged for a closer look

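For TEAD1 with the miR-23b-3p mimic, the normal test called a difference between the 2 lines, a call that did not hold with the trend subtracted. The difference of the log2 fold changes, CaSki minus C-33A, was 0.87 (SE 0.211, adjusted p = 0.0101 over all genes tested), and subtracting the trend over transcript length and GC content left 0.59 (adjusted p = 0.275). Groups have at most 3 samples, and outlying samples were not looked for.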

How the results depend on the processing

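No paired analysis was possible because the deposited tables hold no values per sample. Sample titles carry replicate numbers that mimic and control groups share, 1 to 3 in most groups. The C-33A miR-124-3p group holds only numbers 2 and 3. The p-values are those deposited, and no pairing by this number was added here. For the same reason no replicate could be left out, and the 2 C-33A miR-124-3p samples could not be weighed singly. Counts of called genes among the 10 moved as follows. In C-33A with miR-124-3p the 1 call became 2 at an FDR under 0.10, adjusted over expressed genes, and with the trend subtracted. In CaSki with miR-124-3p it became 0 at an FDR under 0.01 and with the trend subtracted. In CaSki with miR-23b-3p the 4 became 2 with a fold change of at least 1.5. They became 5 adjusted over expressed genes, LATS2 being added, and 3 with the trend subtracted, LATS1 being lost. The difference between lines for miR-23b-3p went from 1 to 0 with the trend subtracted. Genes with a site went from 2 to 7 for miR-218-5p and from 1 to 3 for miR-23b-3p with positions 2 to 7 (33.6% and 38.0% of all genes). For miR-23b-3p they went from 1 to 0 with 8mers (8.76% of all genes). Other counts stayed within 1.5 times. Signs turned for uncalled values only. With the trend subtracted these were YAP1 (0.00066) and TEAD3 (-0.044) in C-33A with miR-23b-3p, YAP1 (-0.023) and AMOTL2 (-0.016) in CaSki with miR-124-3p, and AMOTL2 (-0.051) in CaSki with miR-218-5p. With the median subtracted they were LATS2 (0.016) in C-33A and AMOTL2 (-0.0021) in CaSki, both with miR-218-5p. When set against the other 2 mimics of the line, 35 fold changes of 60 moved by more than their SE and 25 did not. The sign turned for 28 of them, all uncalled, 5 with an unadjusted p under 0.05, such as WWTR1 in CaSki with miR-218-5p (0.54 to -0.32) and CCN2 in C-33A with miR-218-5p (-0.36 to 0.14). The cause was not tested. The low level of CCN2 in CaSki and of TEAD3 in C-33A limits their precision.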
